A study of Mus musculus with 6 samples.

Results

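The phagocyte NADPH oxidase was followed in splenic CD11b+Gr-1high cells, the granulocytic fraction that accumulates with G-CSF treatment and with tumor growth. Its members were taken by gene symbol as Cybb, Cyba, Ncf1, Ncf4, Rac1 and Rac2. The array holds 8 probes of these 6 genes, of 45281 probes and 19057 named genes in all. Cells came from female BALB/c mice of 6 to 8 weeks in 3 groups of 2 arrays each. WT mice carried no tumor. G-CSF mice received 10 µg of recombinant G-CSF per day for 5 days, and 4T1-TB mice bore tumors above 1000 mm3 grown orthotopically from 50000 cells of the 4T1 line, which derives from a BALB/c mammary carcinoma. The cells were sorted at a purity above 98% in 2 independent experiments. The sources used here do not say how many mice went into 1 array, so the p-values measure only the spread between these samples. The question was how far the enzyme's transcripts in G-CSF-treated mice follow those of tumor-bearing mice or those of untreated controls.

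The oxidase moves electrons from NADPH across the phagosome or plasma membrane onto oxygen and so produces superoxide, the start of the respiratory burst of neutrophils and macrophages. Its catalytic core is a membrane pair, encoded by Cybb and Cyba. In a resting cell the regulatory subunits stay in the cytosol, and on activation they move to the membrane together with a Rac GTPase loaded with GTP. Loss of a core or cytosolic subunit causes chronic granulomatous disease in humans. Reactive oxygen species are also a known means by which granulocytic myeloid-derived suppressor cells restrain T cells.

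Each value below is a log2 intensity, normalized between arrays by the authors so that all arrays share 1 distribution. A detection p under 0.05, set against the negative controls of that array, marks a probe as detected. A change was called where the p-value from 1 limma model of the 6 arrays stayed under 0.05 after Benjamini-Hochberg adjustment over all probes. Of the 8 member probes, 5 were detected on at least 2 arrays, with 1 such probe each for Cyba, Ncf1, Ncf4, Rac1 and Rac2, and 4 were detected on all 6 arrays. A total of 11527 probes on the array were detected on at least 2 arrays. Because the cells were measured in bulk, fewer cells that carry a transcript and less of it per cell cannot be told apart.

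The 2 G-CSF arrays stood apart from each other more than those of the other groups. Over the 11527 detected probes the difference between the arrays of a group had an SD of 0.63 in G-CSF, 0.32 in 4T1-TB and 0.20 in WT. It reached 2-fold for 871 probes in G-CSF, 114 in 4T1-TB and 0 in WT. Granulocyte genes were detected on every array, 12 to 15 of 17 measured, and their mean log2 level lay between 9.70 and 10.18, but single genes of this list moved. Read on the brightest probe of each of the 17, Cebpe and Ltf rose in 4T1-TB against WT and Csf3r, Itgam and Ngp fell. In G-CSF 0 rose and Csf3r, Itgam and S100a8 fell. Over all detected probes 21.5% were called in 4T1-TB and 17.8% in G-CSF, so nothing particular to the list is read from these counts. The other Cebpe probes had lower means in 4T1-TB than in WT. ILMN_3029849, detected on all 6 arrays, had 7.88 against 8.16, ILMN_2528453 6.95 against 7.96 and ILMN_3103062 6.97 against 7.19. Csf3r, which encodes the G-CSF receptor, read 11.06 and 11.26 in WT, 7.59 and 9.08 in G-CSF, and 7.67 and 7.61 in 4T1-TB. Ngp, a granule protein gene, read 12.21 and 11.91, 7.28 and 9.99, and 7.67 and 7.81. Itgam, which encodes the sort antigen CD11b, read 7.78 and 7.95 in WT and 6.79 to 7.00 on the other 4 arrays, where it was not above background. These 8 calls were lost without either WT array (limma adjusted p 0.0519 to 0.249) and with median centring, which turned S100a8 to 0.18. Erythroid genes were high on 1 array in each of the G-CSF and 4T1-TB groups. The mean log2 level of 6 measured genes was 10.60 on G-CSF replicate 1 and 10.85 on 4T1-TB replicate 1, against 7.16 to 8.05 on the other 4. All 6 were detected on G-CSF replicate 1 and 5 on 4T1-TB replicate 1, against 2 or 3 on the others. The lists of monocyte and macrophage markers, of cells that also use this oxidase, had lower means outside WT. The 10 monocyte genes averaged 7.62 and 7.64 in WT and 7.15 to 7.47 elsewhere, and the 12 macrophage genes 7.31 and 7.34 against 6.90 to 7.10. The median monocyte gene differed from WT by -0.25 in 4T1-TB and -0.17 in G-CSF. For macrophage genes the medians were near 0, at -0.06 and 0.04. Of the lists 5 monocyte and 7 macrophage genes were detected on at least 2 arrays. In both comparisons with WT the macrophage genes C1qb, C1qc and Vcam1 and the monocyte gene Treml4 fell, and 0 of the 74 markers of other cell types rose, with 16 in 4T1-TB and 9 in G-CSF at an unadjusted p under 0.05. Over all probes 5.49% were called in 4T1-TB and 4.53% in G-CSF, and 14.3% and 13.4% had an unadjusted p under 0.05. The T cell gene Cd3d was detected on all arrays, at 9.35 and 9.68 in WT, 10.59 and 10.40 in G-CSF, and 10.35 and 11.12 in 4T1-TB, without a call (limma adjusted p = 0.0678 in 4T1-TB and 0.147 in G-CSF). The eosinophil gene Prg2 read 10.24 on 4T1-TB replicate 1 and 6.90 to 7.37 on the others. On the replicate 1 arrays of G-CSF and 4T1-TB the T cell gene Cd3e read 7.84 and 7.34, with the other 4 at 6.79 to 7.02, and the B cell gene Cd79b read 8.31 and 7.71, with the other 4 at 6.85 to 7.04. The macrophage marker Adgre1 was near background, at 6.92 to 7.31 on its brightest probe, which was detected on 4 arrays. C1qb lost both calls without either WT array, with limma adjusted p of 0.11 to 0.192, and without any other array except those of G-CSF, at 0.0507 to 0.09, and Vcam1 in G-CSF lost its call without WT replicate 1 (0.0503). The part of these markers and of the G-CSF gap in the values that follow was not tested, except where a result is given without an array.

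The transcript of the catalytic subunit was not measured above background. Cybb encodes the large glycoprotein of the membrane pair, which carries the heme and flavin groups. Its probe ILMN_2582791 read 6.90 and 7.01 in WT, 6.93 and 6.90 in G-CSF, and 7.03 and 6.97 in 4T1-TB, and was detected on 0 of 6 arrays. Its probe ILMN_2716935 read 7.02 and 6.82, 7.07 and 6.88, and 6.98 and 6.89 in the same order. It was detected only on G-CSF replicate 1, at a detection p of 0.0246. Both probes thus stayed close to the negative controls in all groups, and no fold change is given for them. A probe at background sets no limit on the amount of the transcript or its protein.

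Cyba encodes the small membrane subunit, which stabilizes its large partner and docks the cytosolic subunits. Its log2 level was 12.32 and 12.62 in WT, 9.74 and 13.25 in G-CSF, and 11.47 and 11.03 in 4T1-TB. Both 4T1-TB arrays were below both WT arrays, whereas the G-CSF arrays held the lowest and the highest value of all 6. The gap of 3.50 between them was larger than that of 99.6% of the detected probes. The difference from WT was -1.23 (SE 1.06, 95% interval -3.87 to 1.42) in 4T1-TB and -0.98 (SE 1.06, -3.62 to 1.67) in G-CSF, and limma called neither, at adjusted p = 0.755 and 0.815. G-CSF replicate 1 alone was 2.73 below the WT mean and replicate 2 alone 0.77 above it. Accordingly, the G-CSF group mean of Cyba describes neither of its arrays. When only the 4 arrays of 4T1-TB and WT were fitted, the same difference of -1.23 had an SE of 0.16 and an adjusted p of 0.00331 by limma. That fit called 11.3% of all probes. Centred on the array median in place of quantile normalization, the difference shrank to -0.21 in 4T1-TB and turned to 0.31 in G-CSF. The deposited intensities of Cyba were 3643.7 and 3352.5 in WT, 1624.9 and 11277.5 in G-CSF, and 4244.5 and 2060.1 in 4T1-TB. Before normalization the 4T1-TB arrays thus lay on either side of the WT arrays.

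**Figure D1:**
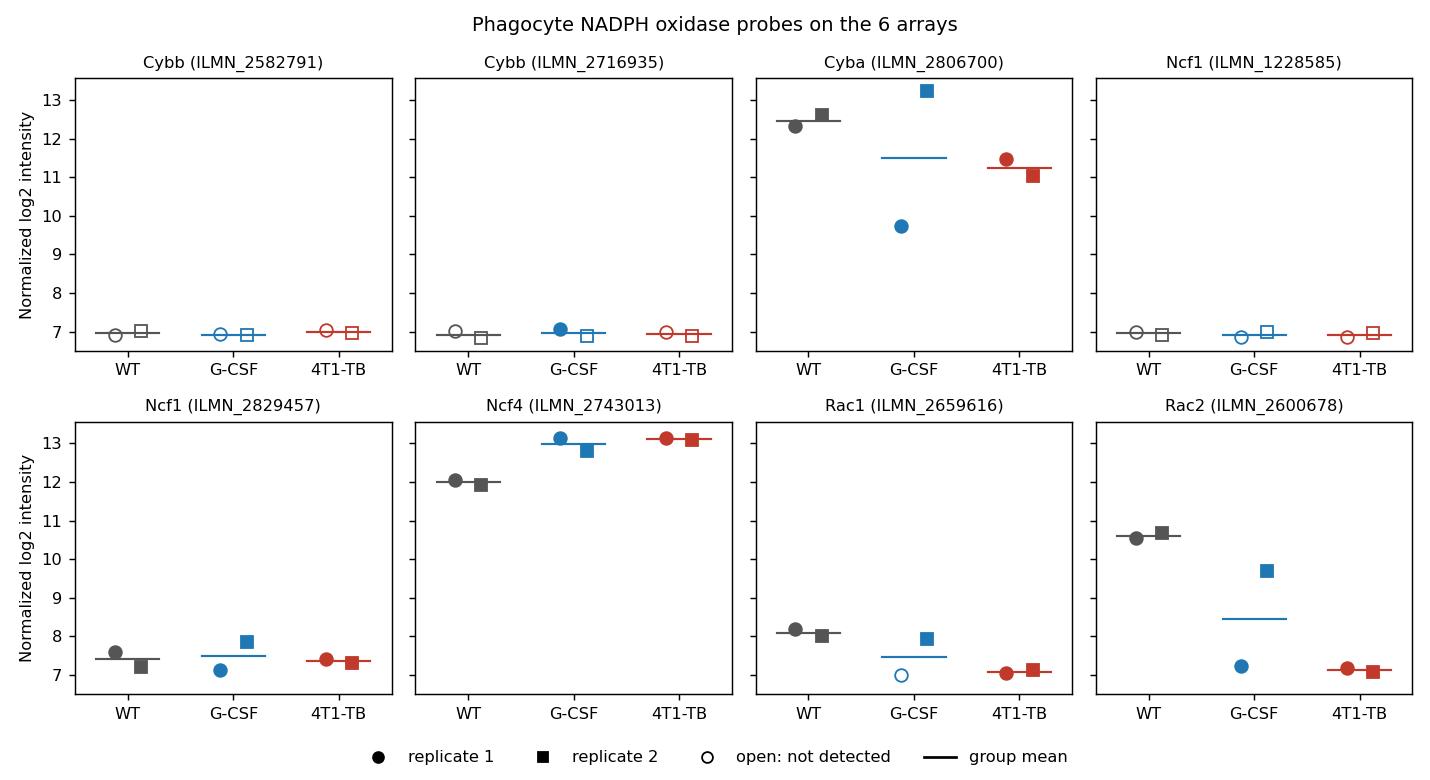
Normalized log2 intensity (vertical axis) of the 8 oxidase probes on each array, by group (horizontal axis). Circles are replicate 1, squares replicate 2, lines the group means, and open symbols arrays on which the probe was not detected. Ncf4 was higher on all 4 G-CSF and 4T1-TB arrays than on WT, Rac2 was lower on all 4, and the 2 G-CSF arrays lay apart for Cyba, Rac1 and Rac2.

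Of the cytosolic subunits, Ncf4 was called and Ncf1 was not, and the difference between these 2 was not tested. Ncf1 encodes the organizer, whose phosphorylation starts the assembly of the enzyme. Its probe ILMN_1228585 was detected on 0 of 6 arrays, at 6.85 to 6.99. Its probe ILMN_2829457 was detected on all 6 but stayed dim, at 7.59 and 7.20 in WT, 7.12 and 7.85 in G-CSF, and 7.40 and 7.31 in 4T1-TB. The groups overlapped. The difference from WT was -0.04 (95% interval -0.67 to 0.60) in 4T1-TB and 0.09 (-0.54 to 0.73) in G-CSF, with limma adjusted p = 0.978 and 0.941. Both intervals were wide next to the differences, so these arrays bound the transcript only loosely.

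Ncf4 was the only member called, and it rose in both groups. It encodes the subunit that binds phosphatidylinositol 3-phosphate on the phagosome and sustains superoxide release there. Its log2 level was 12.06 and 11.93 in WT, 13.15 and 12.80 in G-CSF, and 13.14 and 13.10 in 4T1-TB. All 4 arrays of the treated and tumor-bearing mice exceeded both WT arrays, and those 4 overlapped among themselves. Ncf4 rose 2.18-fold in 4T1-TB (log2 difference 1.12, SE 0.12, 95% interval 0.82 to 1.42, limma adjusted p = 0.00753). In G-CSF the increase was 1.98-fold (0.98, SE 0.12, 0.68 to 1.28, limma adjusted p = 0.0121). Between 4T1-TB and G-CSF the difference was 0.14 (-0.16 to 0.44). Over all detected probes 11.5% rose in 4T1-TB and 8.71% in G-CSF by the same call, so a rise of 1 detected member in 5 is not far from that background.

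The size of the Ncf4 increase depended on the scale, and its call on the scale and on which arrays were fitted. The deposited intensities were 2970.1 and 1875.6 in WT, 13713.7 and 8293.9 in G-CSF, and 11571.4 and 8189.9 in 4T1-TB. Their geometric means differed 4.12-fold between 4T1-TB and WT and 4.52-fold between G-CSF and WT. The 95th percentile of intensity was 207.2 and 247.3 on the WT arrays and 336.1 to 542.7 on the others, a gap that quantile normalization evens out. With median centring the log2 differences were 2.07 and 2.19, and limma no longer called them, at adjusted p = 0.121 and 0.0925. That scaling moved the median of all detected probes from 0.07 to 0.17 in 4T1-TB and to 0.21 in G-CSF. Only 35 and 112 probes were then called, of which 74.3% and 85.7% were higher than WT. With quantile normalization 2486 and 2053 were called, of which 53.3% and 49.0% were higher. Without any 1 of the WT or 4T1-TB arrays the 4T1-TB increase kept its size, at 1.06 to 1.18, but limma gave adjusted p = 0.0632 without WT replicate 1, 0.0796 without WT replicate 2, 0.0759 without 4T1-TB replicate 1 and 0.065 without 4T1-TB replicate 2. For G-CSF the adjusted p was 0.083 without WT replicate 1 and 0.116 without WT replicate 2. The increase was present without either G-CSF array, at 0.81 without replicate 1 (adjusted p = 0.0027) and 1.16 without replicate 2 (adjusted p = 0.000331).

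The Rac GTPases were lower on the arrays of tumor-bearing mice, without passing the call. Rac2 is the isoform of blood cells and the main Rac of the neutrophil oxidase. Its log2 level was 10.54 and 10.67 in WT, 7.23 and 9.69 in G-CSF, and 7.18 and 7.07 in 4T1-TB. The 3 groups did not overlap. G-CSF replicate 1 lay beside the 4T1-TB arrays, and replicate 2 was nearer to WT. In deposited intensity Rac2 read 921.0 and 707.9 in WT, 164.5 and 983.3 in G-CSF, and 153.1 and 129.3 in 4T1-TB, where array medians were 117.2 to 126.9. Hence the 4T1-TB signal was close to background, with detection p of 0.00214 and 0.0406.

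The log2 difference of Rac2 from WT was -3.48 (SE 0.74, 95% interval -5.32 to -1.64, 11.2-fold) in 4T1-TB. Its unadjusted P was 0.00394 and its limma adjusted p 0.0643, so that it met the criterion of the study's methods, 2-fold with P under 0.01, but not the adjusted threshold. In G-CSF the difference was -2.15 (SE 0.74, -3.99 to -0.31, limma adjusted p = 0.278). The SE came mostly from the 2.46 between the G-CSF arrays, a gap larger than that of 98.8% of detected probes. Fitted on the 4 arrays of 4T1-TB and WT alone, where 11.3% of all probes were called, Rac2 had limma adjusted p = 4.31e-06. With the adjustment confined to detected probes it was 0.0305. The G-CSF difference was -3.37 without G-CSF replicate 2 (limma adjusted p = 1.5e-05, with 11.2% of all probes called) and -0.92 without replicate 1 (0.00224, with 6.62% called). In these fits the lone G-CSF array is assumed to vary like the other groups. After neqc, which subtracts the background, the differences were -5.54 and -3.08, and with median centring -2.49 and -0.99, all in the same direction. Limma called none of these. In 4T1-TB and G-CSF its adjusted p was 0.13 and 0.457 after neqc, and 0.36 and 0.752 with median centring.

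Rac1 is the widely expressed isoform, which can serve the oxidase and also acts on the cytoskeleton. Its log2 level was 8.18 and 8.0 in WT, 7.00 and 7.93 in G-CSF, and 7.05 and 7.12 in 4T1-TB. It was not detected on G-CSF replicate 1, at a detection p of 0.127, and only narrowly on the 4T1-TB arrays, at 0.0385 and 0.0171. Both 4T1-TB arrays lay below both WT arrays, with G-CSF replicate 1 beside the former and replicate 2 just under the latter. The difference was -1.01 (SE 0.29, 95% interval -1.73 to -0.29, limma adjusted p = 0.161) in 4T1-TB and -0.63 (SE 0.29, -1.35 to 0.09, adjusted p = 0.461) in G-CSF. Fitted on the 4 arrays of 4T1-TB and WT alone, where 11.3% of all probes were called, the 4T1-TB difference of -1.01 was called (limma adjusted p = 0.000362). No fold against WT is given for G-CSF replicate 1 alone, on which the probe was not above background. Without that array the G-CSF difference was -0.16 (adjusted p = 0.635).

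The size of the Rac1 difference also depended on the scale. The deposited intensities were 215.6 and 178.6 in WT, 130.9 and 264.1 in G-CSF, and 134.2 and 132.8 in 4T1-TB, so that G-CSF replicate 2 was above both WT arrays before normalization. With median centring the log2 differences from WT were -0.53 in 4T1-TB and -0.06 in G-CSF, and after neqc -2.48 and -1.54, with the same sign throughout.

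**Figure D2:**
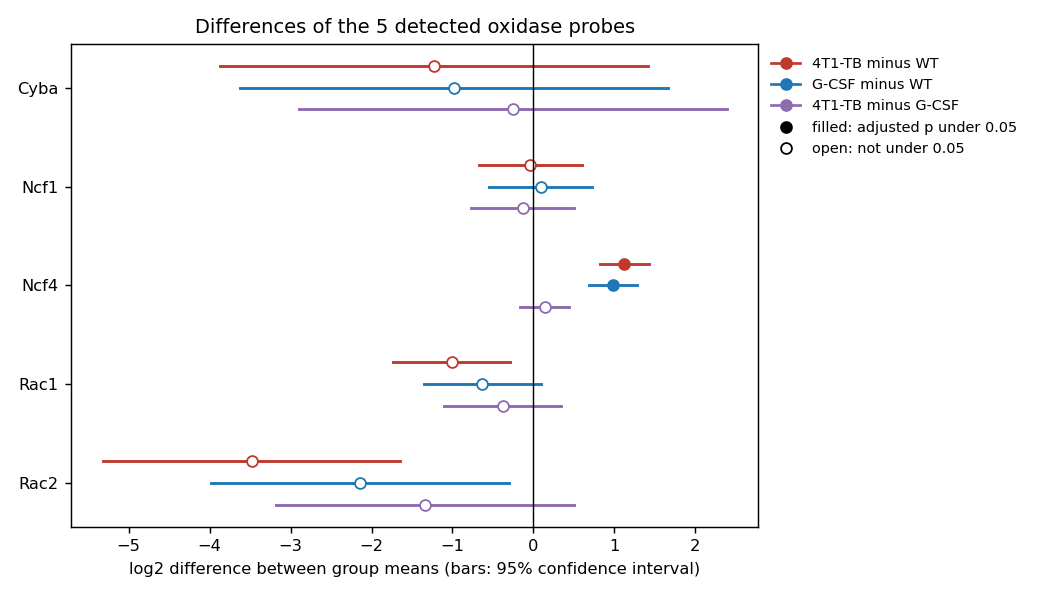
Log2 difference between group means (horizontal axis) of the 5 detected oxidase members in the 3 comparisons, with 95% confidence intervals from limma. Filled points had an adjusted p under 0.05, which was so for Ncf4 in 4T1-TB (1.12) and in G-CSF (0.98) against WT. Intervals of Cyba spanned 0 in all comparisons, and those of Rac2 lay below 0 in both comparisons with WT.

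Over the 8 member probes limma called 1 in 4T1-TB against WT, where 5.49% of all probes were called, and 1 in G-CSF against WT, where 4.53% were. In each case this was Ncf4. Unadjusted p-values were under 0.05 for 3 probes, Ncf4, Rac1 and Rac2, in 4T1-TB and for 2, Ncf4 and Rac2, in G-CSF. The same held for 14.3% and 13.4% of all probes and for 48.2% and 44.2% of detected probes. Nothing particular to the members is read from these counts. By the criterion of the methods 2 member probes passed in 4T1-TB, Ncf4 and Rac2, beside 3.51% of all probes. In G-CSF 0 passed, beside 2.88%, as the increase of Ncf4 was just under 2-fold. The median difference of the 5 detected members was -1.01 in 4T1-TB and -0.63 in G-CSF, against 0.07 in both over all detected probes. These medians describe members of mixed direction, and no list test was made.

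Between 4T1-TB and G-CSF limma called 0 member probes and 0% of all probes, with 0 member probes and 1416 of 45281 probes at an unadjusted p under 0.05. By the 2-fold criterion 0 member probes and 0.0751% of all passed. The intervals show how little this says for most members. They ran from -2.89 to 2.40 for Cyba, from -3.18 to 0.50 for Rac2 and from -1.10 to 0.34 for Rac1. That of Ncf4 was the narrowest among these 4. Without G-CSF replicate 1 limma called 3 members lower in 4T1-TB than in the remaining G-CSF array, beside 2.89% of all probes. These were Cyba at -2.00 (adjusted p = 0.00414), Rac1 at -0.85 (0.00766) and Rac2 at -2.56 (0.00012). Without G-CSF replicate 2 it called 0 members, with Rac2 at -0.11.

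The position of each G-CSF array between the WT and 4T1-TB means was then read for the members, with WT at 0% and 4T1-TB at 100%. For Ncf4 the arrays lay at 103% and 72.0%, and so both on the side of the tumor-bearing mice. Rac2 lay at 96.9% and 26.3%, and Rac1 at 109%, where it was not detected, and 16.1%. Cyba lay outside the range on both sides, at 223% and -63.2%. Of 1012 detected probes with a 4T1-TB mean at least 1 log2 unit below WT, G-CSF replicate 1 was nearer to WT for 6 (0.593%) and replicate 2 for 302 (29.8%). Of 886 probes at least 1 unit higher in 4T1-TB it was so for 44 (4.97%) and 246 (27.8%). Rac1, Rac2 and Cyba thus belong with about 3 in 10 of the probes lower in 4T1-TB on which the G-CSF replicates parted, and Ncf4 with those on which they did not. Erythroid genes were high on G-CSF replicate 1 and not on replicate 2, and their part in this split was not tested.

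**Figure D3:**
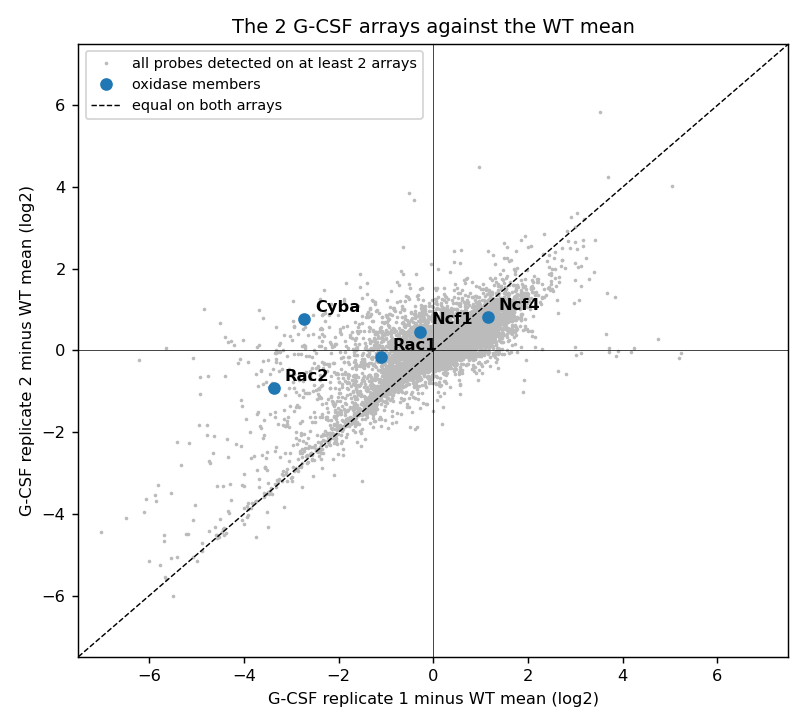
Log2 difference from the WT mean on G-CSF replicate 1 (horizontal axis) and replicate 2 (vertical axis) for the 11527 detected probes (grey) and the 5 detected members (blue). The dashed line marks equal differences. Ncf4 lay near the line at 1.16 and 0.81, and Cyba far from it at -2.73 and 0.77.

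**Figure D4:**
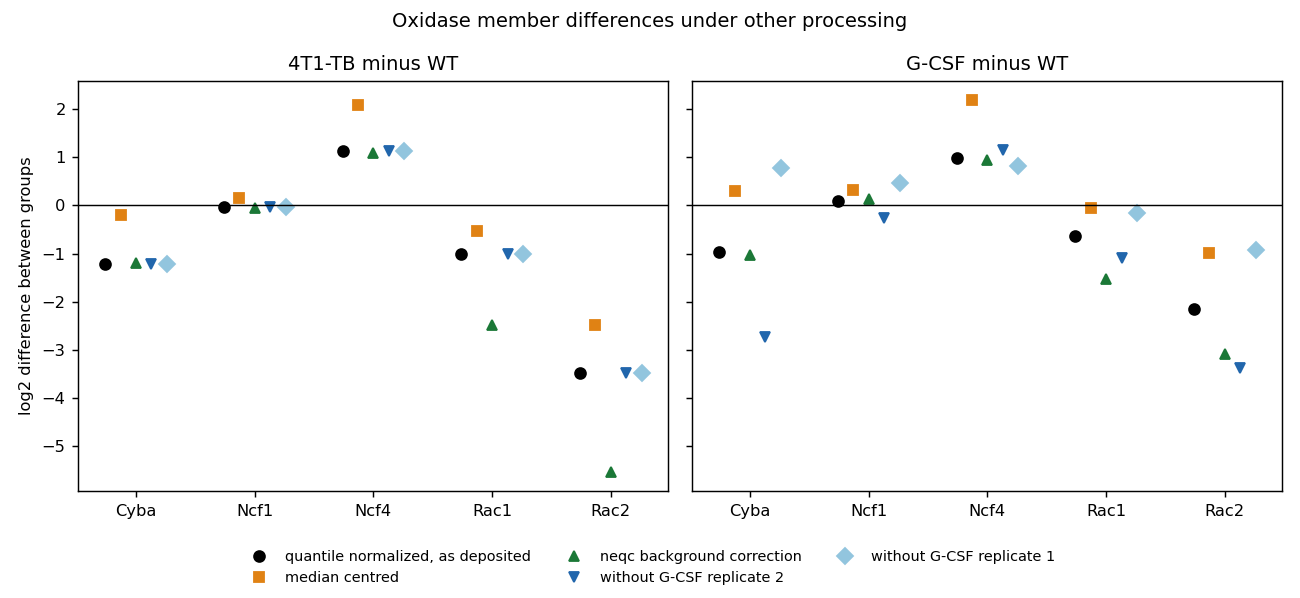
Log2 difference of the 5 detected members (horizontal axis) from WT in 4T1-TB and in G-CSF under the deposited quantile normalization, median centring, neqc background correction, and without either G-CSF array. Ncf4 stayed above 0 and Rac2 below 0 in all 5 settings, while Cyba in G-CSF ranged from -2.73 to 0.77. The point of Rac1 in G-CSF without replicate 2 rests on an array on which it was not detected.

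The other proteins that chaperone, charge-compensate or switch on the enzyme were read from a list of 25 genes, of which 21 were measured here and 17 detected. In 4T1-TB against WT 4 of the 21 rose and 1 fell, and in G-CSF 2 rose and 1 fell, counted on the brightest probe of each gene. Their median difference was 0.01 and -0.04. At an unadjusted p under 0.05 there were 11 and 6. Over all detected probes limma called 21.5% in 4T1-TB and 17.8% in G-CSF, and 48.2% and 44.2% had an unadjusted p under 0.05, so nothing particular to the list is read from these counts.

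Of the chaperones of the membrane pair, Cybc1 (Eros), which is needed for stable core protein, read 8.52 and 8.70 in WT, 8.05 and 9.06 in G-CSF, and 8.79 and 8.33 in 4T1-TB. The groups overlapped, and the differences were -0.04 and -0.05 (limma adjusted p = 0.981 and 0.977). Nrros, whose product in mouse phagocytes lowers the amount of the catalytic subunit, read 10.96 and 10.97 in WT, 11.82 and 11.77 in G-CSF, and 11.53 and 11.47 in 4T1-TB. It rose by 0.83 in G-CSF (SE 0.05, limma adjusted p = 0.00171) and by 0.54 in 4T1-TB (SE 0.05, adjusted p = 0.00609). The replicates of each group lay within 0.07 of each other on this probe. Its second probe was not detected on any array.

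Hvcn1 encodes the voltage-gated proton channel that carries charge out to balance the electrons of the oxidase. Its log2 level was 7.44 and 7.49 in WT, 7.92 and 7.48 in G-CSF, and 9.29 and 9.33 in 4T1-TB. The 4T1-TB arrays were above all others and the G-CSF arrays were not separate from WT. It rose by 1.84 in 4T1-TB (SE 0.14, 95% interval 1.49 to 2.20, limma adjusted p = 0.00266), and the difference in G-CSF was 0.23 (-0.12 to 0.58, adjusted p = 0.625). Between 4T1-TB and G-CSF it differed by 1.61 (1.26 to 1.97), at a limma adjusted p of 0.684. No probe on the array was called in that comparison. On the second Hvcn1 probe G-CSF replicate 1 read 8.34 and replicate 2 read 7.03, against 8.50 and 8.46 in 4T1-TB and 7.01 and 6.94 in WT. That probe therefore put G-CSF replicate 1 close to the tumor-bearing mice, which the first did not.

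Among the exchange factors that load Rac with GTP, Vav1 rose in both groups. It read 10.24 and 10.22 in WT, 10.88 and 10.94 in G-CSF, and 11.01 and 10.96 in 4T1-TB, an increase of 0.68 (limma adjusted p = 0.00303) and 0.76 (adjusted p = 0.00211). Tiam1 fell by 0.55 in G-CSF (adjusted p = 0.00738), at 7.49 and 7.40 against 7.98 and 8.02 in WT, and read 8.03 and 7.99 in 4T1-TB, a difference from G-CSF of 0.57 (adjusted p = 0.684). Prex1, an exchange factor for Rac2 in mouse neutrophils, and Rhog, a related small GTPase, were looked at after their values were seen, since they parted the G-CSF arrays as Rac2 did. Prex1 read 9.87 and 9.90 in WT, 8.27 and 9.76 in G-CSF, and 8.41 and 8.51 in 4T1-TB. Rhog read 10.37 and 9.86, 7.18 and 10.04, and 7.73 and 7.80. Limma called neither, with adjusted p = 0.208 and 0.296 in 4T1-TB.

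Of the protein kinases C that phosphorylate the organizer, Prkcd rose by 0.81 in 4T1-TB (limma adjusted p = 0.0211), at 11.37 and 11.06 against 10.30 and 10.49 in WT, and read 10.74 and 10.68 in G-CSF. Prkcb fell by 0.57 in 4T1-TB on its brightest probe (limma adjusted p = 0.0389), at 9.10 and 8.97 against 9.73 and 9.49. That probe read 9.30 and 9.45 in G-CSF. Its dimmer probe ILMN_2501605, detected on all 6 arrays, went the other way, with means of 7.63 in 4T1-TB and 7.30 in WT. Probe ILMN_1229458 had 6.91 in 4T1-TB, where it was not detected, and 7.37 in WT. With median centring the falls of Tiam1 and Prkcb turned to 0.06 and 0.65, and none of the 21 partners was called. Under neqc Prkcd and Prkcb also lost their calls, at adjusted p = 0.0521 and 0.0764. Leaving out a WT array did the same for Prkcd, at adjusted p = 0.149 without replicate 1 and 0.097 without replicate 2, as did leaving out 4T1-TB replicate 1 (0.0874), and leaving out either WT or either 4T1-TB array did so for Prkcb, at 0.0797 to 0.244. Tiam1 was not called without WT replicate 1 (0.0636) or WT replicate 2 (0.075), nor Nrros in 4T1-TB without WT replicate 1 (0.0619), WT replicate 2 (0.0598) or 4T1-TB replicate 1 (0.0587). With a trended and robust prior Hvcn1 alone of these genes kept its call, and Vav1 had adjusted p = 0.23 in G-CSF and 0.142 in 4T1-TB.

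**Figure D5:**
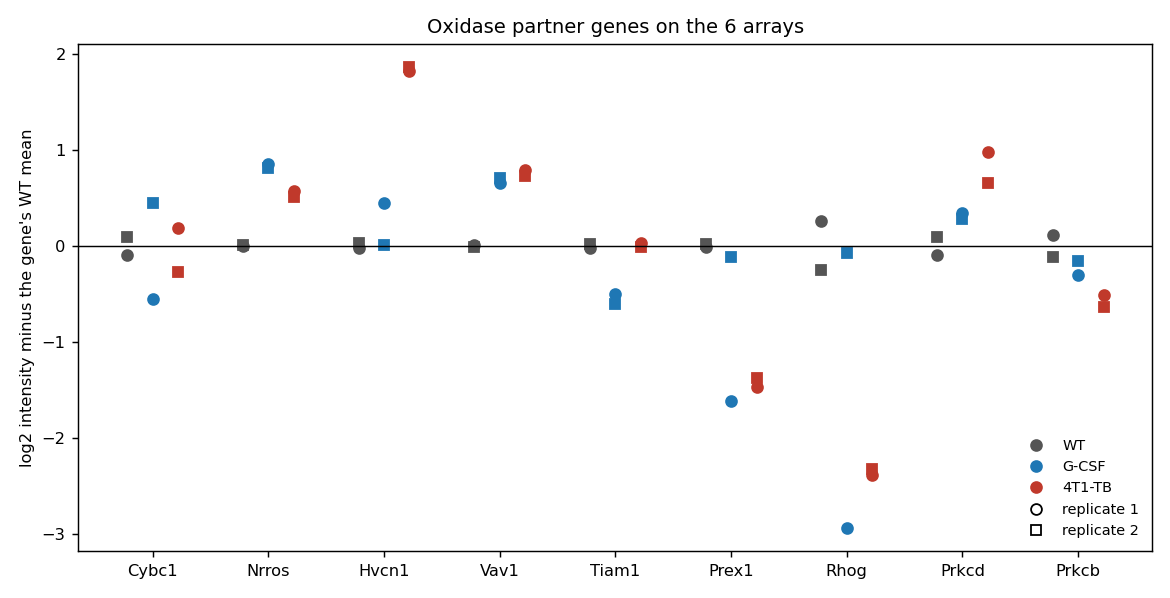
Log2 intensity of 9 oxidase partner genes minus the mean of the WT arrays, on each array (vertical axis), by gene (horizontal axis). Nrros and Vav1 were above WT on all 4 arrays of the other groups, Hvcn1 rose in 4T1-TB (1.84), and Prex1 and Rhog show G-CSF replicate 2 beside WT.

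The NADPH oxidases of other tissues and their helper proteins were at background. Of 8 measured genes of this family only Noxo1 was detected, on 2 arrays, and limma called 0 in any comparison, with 0 at an unadjusted p under 0.05. Genes that remove superoxide and peroxide, 9 measured, had 1 rise in each comparison with WT. This was Txn1, the cytosolic thioredoxin, which was not above background in WT. It was higher by at least 1.44-fold in 4T1-TB (limma adjusted p = 0.0124) and by at least 1.6-fold in G-CSF (adjusted p = 0.0064). Without any 1 of the WT or 4T1-TB arrays the former call was lost (0.0556 to 0.0926), and without WT replicate 1 the latter (0.0585). Gpx1, a selenium peroxidase singled out after its values were seen, read 13.60 on both WT arrays, 7.39 and 13.36 in G-CSF, and 7.48 and 7.97 in 4T1-TB, and so parted the G-CSF arrays as Rac2 did. It was not called (adjusted p = 0.19 in 4T1-TB).

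For each detected member the 3 genes with the most similar values were taken by Pearson's r over the 6 arrays. The candidates were 3682 or 3683 probes of other genes, detected on all 6 arrays. Those nearest to Ncf4 were Rpp21 (r = 0.999), Ndufv2 (0.998) and Nupl1 (0.998). Those nearest to Rac2 were H2-T23 (0.998), Fam177a (0.998) and Ccdc12 (0.997), and to Rac1 Cmip (0.998), Rab8a (0.995) and Gabarap (0.995). Cyba was closest to Sgpl1 (0.992), Rps9 (0.989) and Rnf19b (0.989), and Ncf1 to Fam89b (0.979), Mxd1 (0.972) and Msl1 (0.962). With 6 arrays in 3 groups, shared group differences and the gap between the G-CSF arrays enter each of these values, which are descriptions without a test.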

How the data were processed

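RNA of sorted cells was hybridized to Illumina MouseWG-6 v2 arrays. The authors deposited an intensity per probe with a detection p-value, both exported from GenomeStudio, and log2 values normalized by quantiles. The GenomeStudio version is not given in the sources used here. The methods name background subtraction, which the deposited intensities, starting at 85.3 to 91.8, do not show. Among intensities, 1 column of G-CSF and 1 of 4T1-TB are unnumbered and were taken as replicate 1. Their normalized values differed by at most 4.99e-09 from the deposited log2 values. Genes came from the platform annotation, with 34885 probes of 1 gene, 18 of several and 10378 of none.

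Group means were compared on the deposited log2 values with limma 3.58.1 in R 4.3.3 (3 contrasts, empirical Bayes, 3 residual and 2.59 prior degrees of freedom). The code was tested on simulated data. Having only 2 arrays per group limits the precision: the median half-width of the 95% interval was 0.29 over detected probes.

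All probes of the members were named, genes of the oxidase and peroxide lists called against WT, chaperones, the 3 most similar genes, and markers of other cells that differed. Granulocyte genes and uncalled markers were named after their values were seen. Members and lists were chosen with earlier results of these data known. For lists the probe with the highest mean stood for a gene. A gene undetected in 1 group is given as at least N-fold over the lowest detected signal. Alternatives were median centring, recomputed normalization, neqc (offset 16), a filter on detected probes, a trended and robust prior, only the 4 arrays compared, the replicate number as a block, all detected probes of a gene, each array left out, and the criterion of the methods.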

Additional observations from a re-analysis of the deposited data

How the results depend on the processing

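Of 195 log2 differences of member probes recomputed under the alternatives, 157 kept their direction and side of the threshold, 8 lost a call, 18 gained one and 12 changed sign. The settings overlap, so these counts are not counts of separate checks. Recomputed normalization differed from the deposited values by at most 4.99e-09, which fixed its results in advance. For 4T1-TB against WT, leaving out either G-CSF array repeats the fit of the 4 arrays compared, so calls gained there recur in the count. With median centring Ncf4 lost both calls (2.07 in 4T1-TB, 2.19 in G-CSF) and changed sign between them (-0.12), and sign changes also came for Cyba in G-CSF (0.31) and Ncf1 in 4T1-TB (0.16). Rac2 (-3.48) gained its call in 4T1-TB when only detected probes entered, Rac1 (-1.01) with a trended and robust prior, and Cyba (-1.23), Rac1 (-1.01) and Rac2 (-3.48) when only the 4 arrays compared were fitted.

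With 1 array left out, the 4T1-TB difference from WT ran from -1.45 to -1.01 for Cyba, -0.24 to 0.16 for Ncf1, 1.06 to 1.18 for Ncf4, -1.10 to -0.92 for Rac1 and -3.54 to -3.42 for Rac2. That of G-CSF ran from -2.73 to 0.77, -0.27 to 0.46, 0.81 to 1.16, -1.10 to -0.16 and -3.37 to -0.92 in the same order, and that of 4T1-TB from G-CSF from -2.0 to 1.5, -0.50 to 0.24, -0.032 to 0.31, -0.85 to 0.088 and -2.56 to -0.11. Signs turned for Ncf1 in 4T1-TB without WT replicate 1 (0.16) or 4T1-TB replicate 2 (0.0081), for Ncf1 in G-CSF without WT replicate 2 (-0.11) or G-CSF replicate 2 (-0.27), for Cyba in G-CSF without G-CSF replicate 1 (0.77), and between 4T1-TB and G-CSF without G-CSF replicate 2 for Cyba (1.5), Ncf1 (0.24), Ncf4 (-0.032) and Rac1 (0.088). Among list genes Cybc1, at -0.28 to 0.19 in 4T1-TB and -0.56 to 0.45 in G-CSF with an array left out, turned with median centring (0.92 in 4T1-TB, 1.02 in G-CSF), without WT replicate 2 (0.05, 0.04), without 4T1-TB replicate 2 (0.19) and without G-CSF replicate 1 (0.45), Tiam1 in 4T1-TB (-0.0086 to 0.031) without WT replicate 1 (-0.0086) or 4T1-TB replicate 1 (-0.0077), and with median centring Tiam1 (0.057), Prkcb (0.65 in 4T1-TB, 1.26 in G-CSF) and Prex1 (0.53) did, as did S100a8 in G-CSF (0.18).

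Counts of calls in 4T1-TB against WT were 1 member probe, 2486 probes in all, 5 partners, 1 superoxide or peroxide gene and 4 markers of other cells. Median centring gave 0, 35, 0, 0 and 0. Only the 4 arrays gave 4, 5126, 10, 6 and 9. The 2-fold criterion gave 2 members, 1589 probes and 2 partners, the trended and robust prior 2 members, 3 partners, 2 superoxide or peroxide genes and 9 markers, the filter 2 members and 2 superoxide or peroxide genes, and neqc 3 partners. With an array left out the counts ran from 0 to 4, 729 to 5126, 2 to 10, 0 to 6 and 3 to 9. In G-CSF they were 1, 2053, 3, 1 and 4. Median centring gave 0, 112, 0, 0 and 0, and the 2-fold criterion 0 members, 1302 probes, 1 partner and 0 superoxide or peroxide genes. The trended and robust prior gave 1 partner. With an array left out the counts ran from 0 to 4, 694 to 5089, 2 to 9, 0 to 6 and 2 to 11. Between 4T1-TB and G-CSF all were 0. The prior gave 1 probe and the 2-fold criterion 34 probes and 1 partner, and with an array left out they reached 3, 1310, 4, 3 and 2. Members lost all calls without WT replicate 1 or 2 in both comparisons with WT.

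With the replicate number as a replicate block, superoxide or peroxide genes called were 2 in 4T1-TB and 3 in G-CSF, and the members' calls did not change. The deviations of same-numbered arrays correlated at 0.02 between WT and G-CSF, -0.02 between WT and 4T1-TB and 0.24 between G-CSF and 4T1-TB, not all above 0.1, so the numbers were not taken as pairs. Whether arrays of 1 number share an experiment is not given in the sources used here. The cause of these changes was not tested, other than that fits without the G-CSF arrays or with 1 of them carry no gap between these arrays. Rac1, Rac2 in 4T1-TB and Ncf1 lay close to background, which limits their differences, and without G-CSF replicate 2 those of Rac1 in G-CSF rest on an array on which it was not detected.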
